A study of Mus musculus with 9 samples.

Results

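*Vit* encodes vitrin, a secreted protein of the extracellular matrix. The gene was 1 of 55401 whose reads were counted in the forebrain of mouse embryos, and it was chosen by its level in HET against WT embryos in these same data, and found by its symbol. That difference is therefore given as a description, without a test. *Npas3* encodes a transcription factor of the bHLH-PAS family, and the study profiled embryos that lack 1 copy to learn what the factor contributes to energy metabolism. RNA-seq covered 5 *Npas3*+/+ (WT) and 4 *Npas3*+/- (HET) female embryos at embryonic day 16 to 17 (E16-17). HET animals carried a constitutive deletion on a C57BL/6J background, so every cell of the embryo had the same genotype, and WT embryos were their littermates. The deleted exons are not given in the sources used here. The labels do not tie embryos to litters, so that error bars and p-values measure the spread between these embryos.

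Vitrin carries an LCCL domain and von Willebrand factor A domains, modules that also occur in cochlin, a matrix protein of the inner ear. It was first isolated from the vitreous of the eye, and it is also known as akhirin, a cell adhesion protein of the neural tube. In the forebrain of the embryo, radial glia are the stem cells that line the ventricles and later give rise to astrocytes, and special glial and organizer cells at the midline secrete signals and guide crossing axons.

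The depth was 42640218 to 62830060 counted reads per embryo. Levels were expressed as counts per 1000000 reads (CPM), after the library sizes were scaled with the TMM method of edgeR. The labels name astrocytes as the cell type, but the tissue was bulk forebrain. The 10 neuronal markers summed to 5234 to 5739 CPM in WT embryos. Of 20 astrocyte markers, 17 passed the filter on low counts, and the list summed to 2742 to 3561 CPM in WT embryos. The others, *S100b*, *Gjb6* and *Agt*, did not pass it. Choroid plexus RNA was unequal between embryos. *Ttr*, the transthyretin gene and leading marker of this tissue, reached 2127 to 2631 CPM in WT embryos 15, 16 and 41 and 467 CPM in HET embryo 24, and lay at 0.770 to 11.7 CPM in the other 5 embryos. The sum of all 10 choroid plexus markers ranged from 19.3 to 2939 CPM in WT and from 29.2 to 541.7 CPM in HET embryos.

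*Vit* (ENSMUSG00000024076) lies on the plus strand of mouse chromosome 17 (GRCm38), chr17:78508064-78627408, and spans 119345 bases. GENCODE release M21 gives it 4 transcripts and 15 separate exon blocks with 3227 bases. No other annotated gene overlapped its exons on either strand (0.0% of exonic bases). None of its exonic stretches of 50 bases recurred in another gene (0.0%), so that its reads were not shared with a near copy. Counts were made per gene and do not tell its transcripts apart.

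*Vit* was low in every HET embryo. The WT embryos 5, 15, 16, 41 and 43 had 29.2, 24.99, 29.0, 30.9 and 26.5 CPM. The HET embryos 5, 6, 7 and 24 had 2.86, 3.94, 4.03 and 3.69 CPM. All 5 WT embryos lay close to each other and far above all 4 HET embryos, with no overlap. WT embryos averaged 28.1 ± 2.35 CPM (SD, n = 5) and HET embryos 3.63 ± 0.533 CPM (SD, n = 4), which is 12.9% of the WT level. The log2 fold change of HET against WT was −2.95 with a standard error (SE) of 0.12. In a bulk sample, fewer cells that express a gene and less of its RNA per cell cannot be told apart.

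**Figure D1:**
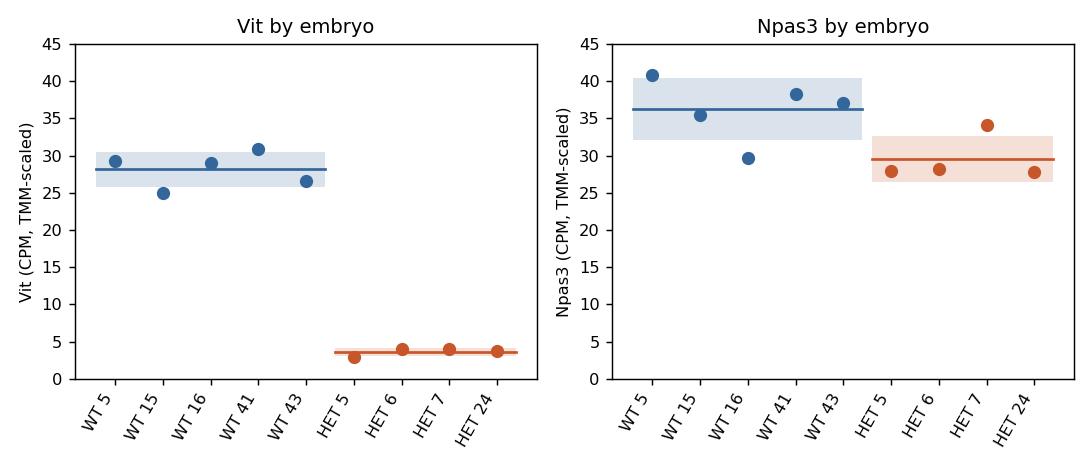
Level of *Vit* in CPM in each embryo, with 1 point per embryo, the group mean as a line and a band of ± 1 SD. The 5 WT embryos sit between 24.99 and 30.9 CPM of *Vit* and the 4 HET embryos between 2.86 and 4.03 CPM. Another panel gives the level of *Npas3* in the same way.

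These levels rested on 1130 to 1963 reads in each WT embryo and on 132 to 195 reads in each HET embryo. The lowest level that 3 counts could show was 0.0722 CPM or less in each library, so *Vit* was detected in every HET embryo. The coefficient of variation between embryos was 8.36% in WT, where counting error alone gave 2.75%, and 14.7% in HET, where counting error alone gave 7.69%. PCR duplicates cannot be recognised in these counts, and the counting error takes each read as independent. Set pair by pair, any WT embryo had 6.20 to 10.8 times the *Vit* level of any HET embryo. Divided by exonic length, *Vit* was at 8.72 CPM per kb in WT and 1.12 CPM per kb in HET embryos. On that scale 67.3% of 17804 tested genes were at or below it in WT, and 31.1% were at or below it in HET embryos.

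*Vit* lay at similar levels in WT embryos with much and with little choroid plexus RNA. It averaged 28.3 CPM in the 3 WT embryos with high *Ttr* and 27.9 CPM in the 2 with *Ttr* under 100 CPM. The 3 HET embryos with *Ttr* under 100 CPM averaged 3.61 CPM. With those 5 low embryos alone the log2 fold change was −2.95, and it was −2.94 when a score of the choroid plexus markers entered the fit. Across all alternatives it lay between −3.01 and −2.86.

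To place *Vit* among the other genes, the gap between the genotypes was taken as the distance on the log2 CPM scale from the lowest embryo of the higher group to the highest embryo of the lower group. A positive gap means that the groups do not overlap. Of 17818 tested genes, 190 (1.07%) lay lower in every HET than in any WT embryo and 140 (0.786%) lay higher, which is 1.85% in all. *Vit* had a gap of 2.62, the widest of all, and the long non-coding RNA *Gm6145* followed with 2.11. Only 3 genes had a gap above 2, and all 15 genes with a gap above 1 were lower in HET embryos. By fold change alone *Vit* was not first. The fitted log2 fold change was lower than that of *Vit* for 19 genes, of which only 2 had groups that did not overlap. These counts describe the contrast through which *Vit* was chosen.

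**Figure D2:**
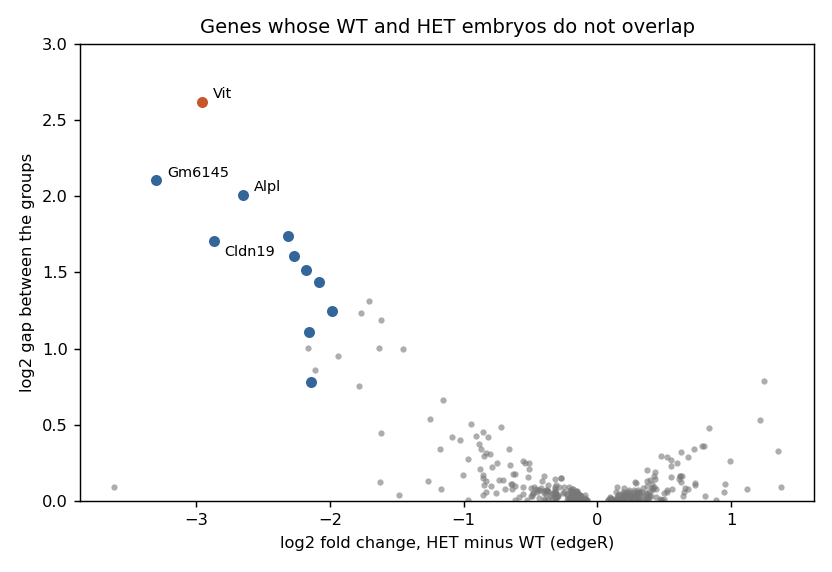
Gap between the genotypes in log2 CPM against the log2 fold change of HET against WT for 330 tested genes with a positive gap. *Vit* and the 10 genes most like it are set apart by colour. *Vit* stands at a gap of 2.62, above all other genes. Genes whose groups overlap are not drawn.

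*Npas3* itself (chr12:53248677-54072175, plus strand) differed less between the genotypes. It was at 40.8, 35.4, 29.7, 38.3 and 37.0 CPM in WT embryos 5, 15, 16, 41 and 43, and at 27.9, 28.2, 34.1 and 27.8 CPM in HET embryos 5, 6, 7 and 24. HET embryo 7 lay within the WT range, so that the groups overlapped. The means were 36.2 ± 4.18 CPM (SD, n = 5) and 29.5 ± 3.09 CPM (SD, n = 4), and HET embryos had 81.4% of the WT level. The log2 fold change of −0.30 (SE 0.10) did not pass edgeR's quasi-likelihood test after Benjamini-Hochberg adjustment over all tested genes (adjusted p = 0.877), although its unadjusted p was under 0.05. The count covers all exons of *Npas3* and cannot tell RNA of the deleted copy from RNA of the intact copy. In cultured cortical astrocytes of newborn HET mice, the paper reported reduced *Npas3* mRNA by real-time PCR. HET embryo 7, with the most *Npas3* of its group, had 4.03 CPM of *Vit* on 195 reads, barely above the 3.94 CPM of HET embryo 6 on 169 reads. The 3 HET embryos other than embryo 7 had 27.8 to 28.2 CPM of *Npas3* and 2.86 to 3.94 CPM of *Vit*. Among WT embryos, embryo 5 had the most *Npas3* and 29.2 CPM of *Vit*, while embryo 41 had the most *Vit*, 30.9 CPM. WT embryo 16, with the least *Npas3* of its group, had 29.0 CPM of *Vit*. The genotypes form separate clusters of *Vit* values with fewer than 6 embryos each, and no correlation is given.

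Likeness to *Vit* was measured as the root mean square difference between the log2 CPM of a gene and that of *Vit* over the 9 embryos, each centred on its own mean. The median distance over all tested genes was 1.48, and the 5th percentile was 1.36. The 10 nearest genes had distances of 0.35 to 0.60 and log2 fold changes of −3.30 to −1.99. The next in order was *Amz1* with 0.62. All 10 had groups that did not overlap, which the choice by likeness to *Vit* favours, and none of them is tested here.

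The nearest gene was *Cldn19* (distance 0.35), which encodes a claudin, a protein of tight junctions. WT embryos 5, 15, 16, 41 and 43 had 1.35, 2.03, 1.63, 2.06 and 1.08 CPM of *Cldn19*, and HET embryos 5, 6, 7 and 24 had 0.108, 0.303, 0.227 and 0.250 CPM. Its level was thus low in every HET embryo, on as few as 5 reads. *Alpl* (distance 0.37), which encodes the tissue-nonspecific alkaline phosphatase, followed with 8.92, 5.37, 6.33, 6.35 and 6.91 CPM in the same WT embryos and 1.28, 1.30, 0.785 and 0.960 CPM in the HET embryos. Again no HET embryo came near the WT range. Within an embryo there were 3.27 to 4.87 *Vit* reads per *Alpl* read in WT and 2.24 to 5.13 in HET embryos. The ratio of *Vit* to *Cldn19* reads was 12.3 to 24.5 in WT and 13.0 to 26.4 in HET embryos. Both ratios overlapped between the genotypes.

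Metallothionein genes, whose products bind zinc and copper, made up 3 of the 10. *Mt1*, *Mt2* and *Mt3* lie together within 27721 bases of chromosome 8. *Mt1* averaged 14.5 ± 2.43 CPM in the WT group (SD, n = 5) against 3.004 ± 0.589 CPM in the HET group (SD, n = 4). *Mt3*, the brain form, was at 51.0 ± 4.25 and 12.8 ± 5.13 CPM. *Mt2* was at 4.04 ± 0.561 and 0.813 ± 0.123 CPM, but 73.5% of its exonic bases overlap a gene on the opposite strand and its value is uncertain. Reads of *Vit* per read of *Mt3* were 0.495 to 0.593 in WT and 0.213 to 0.441 in HET embryos, so that this ratio was lower in every HET embryo.

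The other 5 genes were of mixed kinds. *Gem*, which encodes a small GTP-binding protein, averaged 8.68 ± 1.79 CPM in the WT group (SD, n = 5) and 1.92 ± 0.301 CPM in HET embryos (SD, n = 4). *Zcchc24*, the gene of a zinc finger protein, was at 47.2 ± 8.25 and 11.1 ± 1.02 CPM. *Npas1*, which encodes another bHLH-PAS transcription factor, was at 7.90 ± 2.16 and 1.78 ± 0.677 CPM. *Gm6145* was at 2.69 ± 0.673 and 0.270 ± 0.0857 CPM. *Tfap2d*, which encodes a transcription factor of the AP-2 family, was at 1.47 ± 0.508 and 0.325 ± 0.158 CPM. Reads of *Vit* per read of the gene were lower in every HET than in any WT embryo for 5 of the 10, *Mt1*, *Mt2*, *Mt3*, *Gem* and *Zcchc24*, and the ratio overlapped between the genotypes for the other 5. None of the 10 lies on chromosome 17 with *Vit*. The same 10 genes were nearest with a smaller prior count or with DESeq2 size factors, and 8 to 10 of them were nearest when any 1 embryo was left out.

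**Figure D3:**
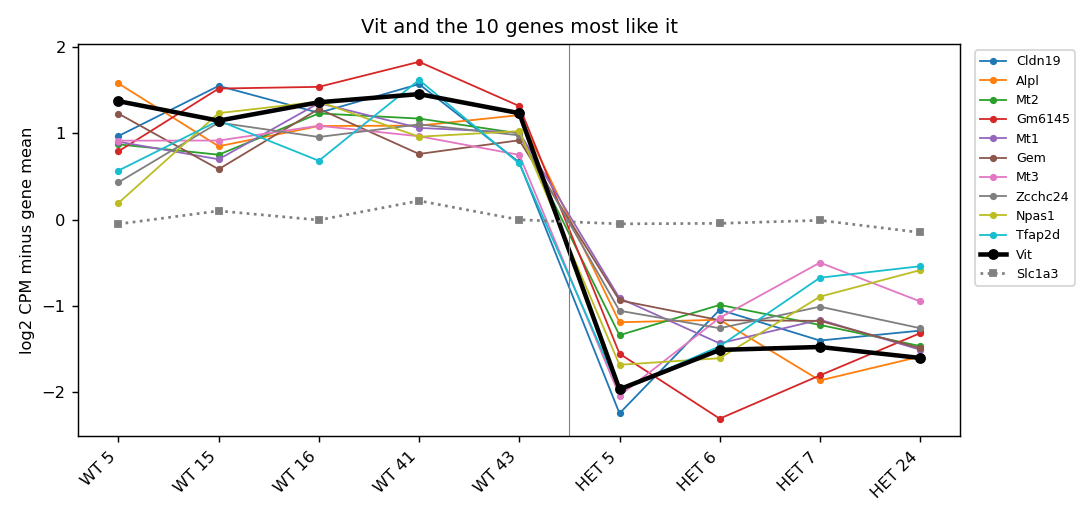
Centred log2 CPM of *Vit* and of the 10 genes with the smallest distance to it, across the 9 embryos. The lines of all 10 genes lie high in WT and low in HET embryos, with distances to *Vit* of 0.35 to 0.60. A dotted line gives *Slc1a3*, a radial glia marker, for comparison (log2 fold change −0.12).

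The promoter sequences of the nearest pair, *Cldn19* and *Alpl*, are shown because the study names the E-box, CANNTG, as the site of NPAS3. They cover 250 bases before to 50 bases after a start site, are taken from RefSeq (GRCm38.p6), are read on the strand of the gene and have each E-box in capitals. The window of *Cldn19* (chr4:119255191-119255490, plus strand) held no E-box, and that of *Alpl* (chr4:137796335-137796634, minus strand) held 1. A second *Alpl* promoter in the table, chr4:137766426-137766725, held 3 and is not shown.
Cldn19: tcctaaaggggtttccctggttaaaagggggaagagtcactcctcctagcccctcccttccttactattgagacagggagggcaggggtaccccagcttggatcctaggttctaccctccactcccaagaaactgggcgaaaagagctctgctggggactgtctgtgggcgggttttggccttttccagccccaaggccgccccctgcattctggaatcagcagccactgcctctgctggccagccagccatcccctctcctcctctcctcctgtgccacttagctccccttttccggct
Alpl: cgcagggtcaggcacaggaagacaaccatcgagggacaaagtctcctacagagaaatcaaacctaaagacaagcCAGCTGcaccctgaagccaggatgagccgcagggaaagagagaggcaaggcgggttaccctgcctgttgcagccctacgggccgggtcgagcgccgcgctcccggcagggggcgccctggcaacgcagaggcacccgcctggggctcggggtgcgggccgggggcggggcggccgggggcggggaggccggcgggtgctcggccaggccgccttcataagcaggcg
CANNTG was searched on both strands, where it reads alike. Of 13 RefSeq promoters found for 9 of the 10 genes, 7 held an E-box, while 72.3% of all 32851 promoters of this length held one. ACGTG, a core of sites for bHLH-PAS proteins, was in 1 of the 13, a promoter of *Mt1*, and in 19.6% of all promoters on either strand. The promoter table used had no entry for *Vit* or *Gem*. A match describes the letters of these windows and is not evidence of binding.

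No relative of *Vit* with an LCCL domain passed the test between genotypes. *Coch*, which encodes cochlin, lies on chromosome 12 at 1642906 bases from *Npas3*. Its level was 1.42, 2.59, 1.72, 2.49 and 1.94 CPM in WT embryos 5, 15, 16, 41 and 43 and 1.41, 2.42, 2.73 and 2.11 CPM in HET embryos 5, 6, 7 and 24. The groups overlapped over nearly their full range, and the log2 fold change was 0.09 (SE 0.23, edgeR adjusted p = 0.956). Per kb of exon, *Coch* was at 0.678 CPM in WT and 0.723 CPM in HET embryos, where *Vit* was at 8.72 and 1.12 CPM. The level of *Vit* was thus above that of *Coch* per length in both genotypes.

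Of the 5 LCCL genes listed, all 5 were tested and 0 passed the threshold of 0.05 in edgeR. Over all tested genes edgeR called 0.140%, with 0.112% lower and 0.0281% higher in HET embryos, and 965 of 17818 had an unadjusted p under 0.05. *Dcbld1* and *Dcbld2*, which encode membrane receptors, had log2 fold changes of 0.03 and −0.01 (edgeR adjusted p = 0.981 and 0.989). *Crispld1*, which encodes a secreted cysteine-rich protein, had −0.13 (edgeR adjusted p = 0.940). *Crispld2*, its close relative, averaged 0.785 ± 0.179 CPM in the WT group (SD, n = 5) and 1.30 ± 0.255 CPM in HET embryos (SD, n = 4). Its groups did not overlap, with the HET embryos higher, but it did not pass the adjusted test (log2 fold change 0.73, SE 0.21, edgeR adjusted p = 0.619). It was the only LCCL gene with an unadjusted p under 0.05, and DESeq2 also called 0 of the 5.

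No tested gene of the matrix lists passed the test. Of 12 genes for matrix proteins with von Willebrand A domains, 10 were tested, 0 were called in either direction by edgeR or DESeq2, 2 had an unadjusted p under 0.05 in edgeR, and the median log2 fold change was −0.16, beside −0.005 over all tested genes. The largest log2 fold changes were those of *Matn2*, a matrilin gene (−1.17, edgeR adjusted p = 0.911), and *Col14a1*, a collagen gene (−1.12, edgeR adjusted p = 0.911). Both signs turned in the 5 embryos with *Ttr* under 100 CPM, to 0.11 and 0.42. Of 20 genes of the brain matrix, 19 were tested and 0 were called by edgeR or DESeq2 and 2 had an unadjusted p under 0.05 in edgeR, with a median of 0.07. *Acan*, which encodes the proteoglycan aggrecan, had 0.58 (edgeR adjusted p = 0.911), and *Hapln1*, which encodes a link protein that binds it to hyaluronan, had 0.38 (edgeR adjusted p = 0.939).

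Among the glial genes, 1 passed the test in edgeR. Of 20 radial glia markers, all tested, 1 was called lower and 0 higher in HET embryos by edgeR, with a median log2 fold change of −0.003. The gene called was *Fabp7*, which encodes the brain fatty acid binding protein. *Fabp7* was at 528.0, 593.1, 750.3, 622.3 and 598.9 CPM in WT embryos 5, 15, 16, 41 and 43 and at 267.9, 351.3, 360.1 and 386.5 CPM in HET embryos 5, 6, 7 and 24. Its groups did not overlap, and its log2 fold change was −0.86 (SE 0.12, edgeR adjusted p = 0.0223). The call was lost without HET embryo 6 or 7 (edgeR adjusted p = 0.115 and 0.0736) and without WT embryo 15, 41 or 43 (edgeR adjusted p = 0.0573, 0.0676 and 0.0561). The log2 fold change in these fits was −0.87, −0.88, −0.87, −0.86 and −0.86, beside −0.86 with all embryos. It was also lost in the 5 embryos with low *Ttr* (log2 fold change −0.79, edgeR adjusted p = 0.467). The call held in every other alternative, DESeq2 among them, and was lost in 5 of the 9 fits that left out 1 embryo. *Hes5*, a Notch target that keeps radial glia undifferentiated, had −0.51 (edgeR adjusted p = 0.911). That value rested on WT embryo 5, and without it the log2 fold change of *Hes5* was 0.021.

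Of 20 astrocyte markers, 17 were tested and 0 were called by edgeR in either direction, with a median of −0.02. In this list 4 of the 17 had an unadjusted p under 0.05 in edgeR, beside 965 of all 17818 tested genes. All 4 were lower in HET embryos (*Aqp4*, *Aldh1l1*, *Acsbg1* and *Clu*). Of the 17, 2 had groups that did not overlap, *Aqp4* and *Acsbg1*, beside 1.07% of all tested genes that lay lower in this way. *Aqp4*, the water channel of astrocyte endfeet, had the lowest log2 fold change of the list. It was at 1.40, 1.42, 1.17, 2.02 and 1.39 CPM in WT embryos 5, 15, 16, 41 and 43 and at 0.238, 0.163, 1.07 and 0.422 CPM in HET embryos 5, 6, 7 and 24. The groups did not overlap, but HET embryo 7 lay just below the WT range. The log2 fold change was −1.63 (SE 0.44, edgeR adjusted p = 0.555), which passed in DESeq2 (adjusted p = 0.0310, where 0.286% of all genes with an adjusted p were called lower) and, in edgeR, without HET embryo 7 (−2.40, adjusted p = 0.0209). *Aldh1l1*, a folate enzyme gene used to mark astrocytes, averaged 22.1 ± 6.71 CPM in the WT group (SD, n = 5) and 9.89 ± 6.47 CPM in HET embryos (SD, n = 4), and its groups overlapped (log2 fold change −1.16, edgeR adjusted p = 0.904).

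The level of *Vit* beside these markers separated the genotypes as its own level did. With marker sums that overlapped between the genotypes, this follows from the choice of *Vit* by the same contrast. The ratios are given as a description. Per 1000 CPM of the radial glia markers, *Vit* was at 4.90 to 6.09 CPM in WT and at 0.537 to 0.880 CPM in HET embryos. The means were 5.39 ± 0.438 (SD, n = 5) and 0.744 ± 0.146 (SD, n = 4), a ratio of 7.25. Per 1000 CPM of the astrocyte markers it was at 8.21 to 11.3 CPM in WT and 0.856 to 1.36 CPM in HET embryos, a ratio of 8.45. The summed markers themselves overlapped, at 4773 to 5562 CPM in WT and 4580 to 5319 CPM in HET embryos for radial glia, and at 2742 to 3561 and 2952 to 3418 CPM for astrocytes. *Nfib* was the largest part of the astrocyte sum, with 1385 of 2952 CPM in the WT mean and 1622 of 3207 CPM in the HET mean. Markers at low levels, such as *Aqp4*, weigh little in that sum, so that it does not track each astrocyte marker.

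No tested gene of the midline lists passed the test. Of 20 genes of midline guidance, all tested, 0 were called by edgeR or DESeq2, 0 had an unadjusted p under 0.05 in edgeR, and the median log2 fold change was 0.17. *Fgf8* and *Fgf17*, growth factors of the rostral midline, had 0.46 and 0.36 (edgeR adjusted p = 0.912 and 0.931). Of 20 genes of midline organizers, 16 were tested, 0 were called by edgeR or DESeq2, and the median was −0.19. An unadjusted p under 0.05 in edgeR was seen for 5 of the 16, all lower, beside 965 of all 17818 tested genes. The 5 were *Msx2*, *Msx1*, *Bmp4* (log2 fold change −1.08), *Lmx1a* (−0.64) and *Rspo2* (−0.33). The homeobox genes *Msx2* and *Msx1*, which respond to BMP signals of the dorsal midline, had −1.32 and −1.30 (edgeR adjusted p = 0.555 and 0.892). The 3 WT embryos with high *Ttr* had 12.9 to 17.4 CPM of *Msx1*, and the other 6 embryos had 2.89 to 5.47 CPM. In the 5 embryos with *Ttr* under 100 CPM the log2 fold change was −0.54 for *Msx2* and −0.040 for *Msx1*. Over the glial and midline lists together, 73 of 80 genes were tested, 5 had a log2 fold change under −1 and 0 had one under −2. Over all 17818 tested genes, 241 had a log2 fold change under −1 and 65 had one under −2. Of the 73, 3 lay lower in every HET than in any WT embryo, beside 1.07% of all tested genes. *Vit*, chosen by this contrast, was at −2.95.

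**Figure D4:**
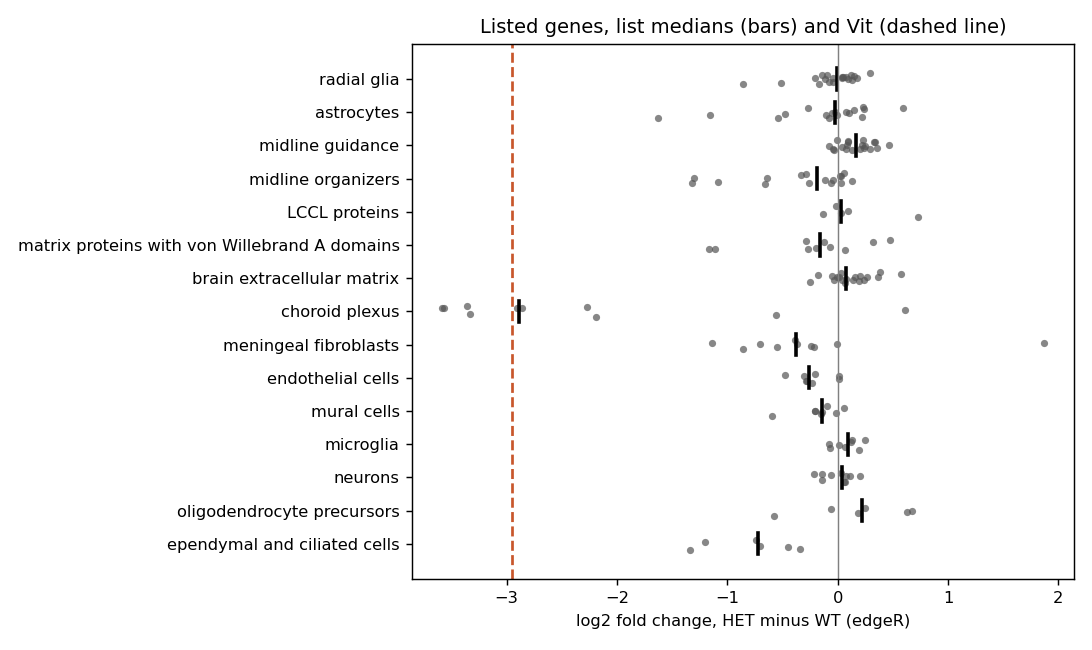
Log2 fold change of HET against WT for each tested gene of the glial, midline, matrix and other marker lists, with the median of each list as a bar and the value of *Vit* as a line. Medians lie between −0.19 and 0.17 for the glial and midline lists, while the choroid plexus median of −2.89 lies next to *Vit*.

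No tested gene around *Vit* on chromosome 17 passed the test. Of 34 other annotated genes within 1000000 bases, 17 were tested, 3 before and 14 after *Vit*. Their log2 fold changes ran from −0.14 to 0.16 with a median of −0.03, 0 were called by edgeR or DESeq2, 0 had an unadjusted p under 0.05 and 0 had groups that did not overlap. On the far side, 22505 bases after *Vit*, *Strn*, which encodes the scaffold protein striatin, averaged 48.4 ± 4.29 CPM in the WT group (SD, n = 5) and 50.2 ± 2.05 CPM in HET embryos (SD, n = 4), with a log2 fold change of 0.05 (SE 0.07, edgeR adjusted p = 0.939). On the near side, 15039 bases before *Vit*, the nearest tested gene was the pseudogene *Hdac1-ps* (0.16, edgeR adjusted p = 0.945). It shares 84.4% of its stretches of 50 bases with other genes, and its value is uncertain. *Fez2*, which encodes a relative of the axon outgrowth protein FEZ1 and lies 89912 bases before *Vit*, had −0.08 (edgeR adjusted p = 0.913).

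**Figure D5:**
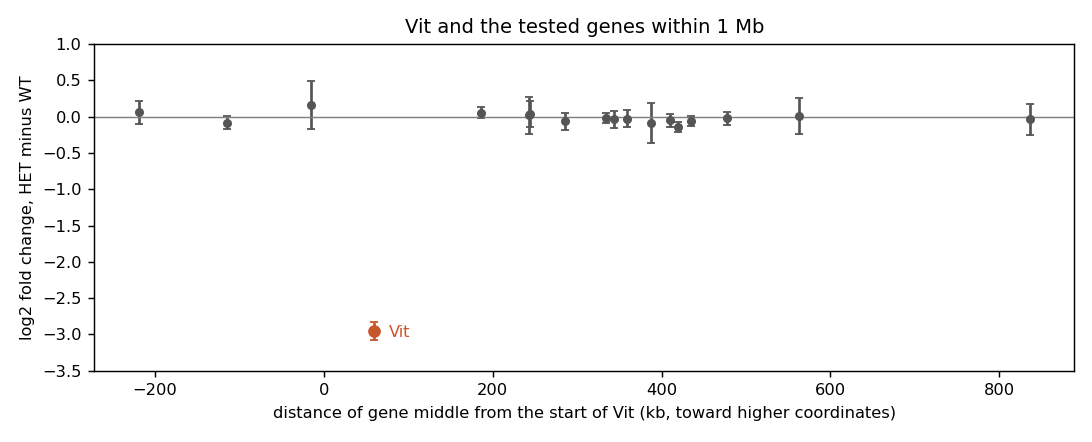
Log2 fold change of HET against WT, with SE, for *Vit* and the 17 tested genes within 1000000 bases, against distance in kb from the start of *Vit*. All 17 neighbours lie between −0.14 and 0.16, and *Vit* lies at −2.95.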

How the data were processed

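Bulk forebrain RNA of 5 WT and 4 HET embryos was captured by poly(A), made into TruSeq libraries and sequenced. The authors aligned reads to GRCm38.p6 with STAR 2.7.9a and summed them per gene with featureCounts on GENCODE M25. The authors deposited the counts unnormalized. Whether strand was used is not given in the sources used here. Besides *Mt2*, genes on the opposite strand overlap 31.8% of the exonic bases of *Hes5* and 19.1% of those of *Dcbld2*. For *Crispld1*, *Aldh1l1* and *Tfap2d* the share is 12.1%, 11.0% and 8.8%. The values of these genes carry the same limit. *Vit* and the gene lists were chosen with earlier results of these data known. Genotypes came from the labels.

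Counts were filtered with filterByExpr (minimum count 10), scaled by TMM and fitted with edgeR 4.0.16 (quasi-likelihood test, no covariates, R 4.3.3). P-values were adjusted over 17818 genes by the Benjamini-Hochberg method with a threshold of 0.05. The common biological coefficient of variation was 16.8%. DESeq2 1.42.0, limma-voom (limma 3.58.1), 2 other scalings, 2 other filters, a choroid plexus score (mean log2 CPM of its markers), embryos with *Ttr* under 100 CPM and leaving out each embryo were alternatives. Centred log2 CPM used a prior count of 2. Positions came from GENCODE M21 for 55141 of 55401 identifiers.

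Named genes were *Vit*, *Npas3*, *Ttr*, the 10 genes nearest *Vit*, the LCCL genes, called genes of the lists or within 1000000 bases, the nearest tested neighbour on each side, and the 2 listed genes with the largest fold change per pathway or glial list. *Fez2*, *Amz1*, *Acsbg1*, *Clu*, *Nfib*, *Bmp4*, *Lmx1a*, *Rspo2* and the untested astrocyte markers were named after their values were seen. *Slc1a3*, of the radial glia list, was added to a figure for comparison.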

Additional observations from a re-analysis of the deposited data

Results flagged for a closer look

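In 64 groups of 4 or 5 embryos, formed by the named genes in each genotype, 6 had 1 embryo far from the rest by Dixon's criterion, which chance alone flags in about 1 in 20 groups. *Vit* was not among them in either genotype. *Npas3* was at 34.1 CPM in HET embryo 7 and at 27.8 to 28.2 CPM in the other HET embryos. *Ttr* was at 466.6 CPM in HET embryo 24, against 2.47 to 11.7 CPM in the others. *Zcchc24*, among the genes most like *Vit*, was at 33.2 CPM in WT embryo 5 and at 47.8 to 53.7 CPM in the other WT embryos. *Hes5* was at 46.6 CPM in the same embryo, against 13.5 to 16.3 CPM. *Dcbld2* was at 33.0 CPM in WT embryo 16 and at 41.9 to 43.9 CPM in the others. *Aqp4* was at 2.02 CPM in WT embryo 41 and at 1.17 to 1.42 CPM in the others.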

How the results depend on the processing

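The log2 fold change of *Vit* lay between −3.01 and −2.86 under all alternatives run, and that of *Npas3* stayed negative and did not pass the adjusted test under any. In the 5 embryos with *Ttr* under 100 CPM, the sign turned for *Ttr* (2.19), *Dcbld1* (−0.041), *Crispld1* (0.18), *Hdac1-ps* (−0.50), *Matn2* (0.11) and *Col14a1* (0.42), and the radial glia list had 0 genes called lower. When the choroid plexus score entered the fit it turned for *Ttr* (1.23), *Crispld1* (0.077) and *Hdac1-ps* (−0.056). The cause was not tested. When each embryo was left out in turn, the log2 fold change ranged from −0.036 to 0.25 for *Coch*, −0.073 to 0.17 for *Dcbld1*, −0.079 to 0.022 for *Dcbld2*, −0.064 to 0.75 for *Hapln1* and −0.63 to 0.021 for *Hes5*. The count called lower ranged from 0 to 1 for radial glia and from 0 to 1 for astrocytes, and DESeq2 called 1 astrocyte gene. The log2 ratio of *Vit* to astrocyte markers, HET against WT, was −3.09 from summed CPM and −2.83 from the mean log2 CPM of the list. Of 17818 genes edgeR called 25 (0.140%), and DESeq2 called 84 of 22039 (0.381%). HET levels rest on 132 to 195 reads of *Vit*. No paired analysis was possible because the labels do not tie embryos to litters. The embryo number shared by WT 5 and HET 5 is not known to mark a pair.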

Other observations

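Markers of other cell types in the forebrain were read beside *Vit*, and neither edgeR nor DESeq2 called any of them in either direction. The 10 choroid plexus markers had a median log2 fold change of −2.89, and 7 had an unadjusted p under 0.05. In the 5 embryos with *Ttr* under 100 CPM that median was 0.64, while *Vit* stayed at −2.95. The ependymal and ciliated list had −0.72 (6 of 8 tested) and 0.64 in those 5 embryos. Medians were −0.38 for meningeal fibroblasts, −0.26 for endothelial cells, −0.15 for mural cells, and 0.56, −0.034 and −0.014 for these lists in the 5 embryos with low *Ttr*. They were 0.09 for microglia, 0.04 for neurons and 0.22 for oligodendrocyte precursors. An unadjusted p under 0.05 in edgeR was seen for 2 meningeal, 2 endothelial and 2 oligodendrocyte precursor genes and for 0 of the mural, microglial, neuronal and ependymal genes. Meningeal markers summed to 19.2 to 65.4 CPM in WT and 26.3 to 33.8 CPM in HET embryos.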
